A study of Mus musculus with 6 samples.

Results

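The core circadian clock genes described here are 10 genes of the molecular clock: Arntl (also called Bmal1), Clock, Npas2, Per2, Per3, Cry1, Nr1d1, Nr1d2, Dbp and Tef. They were chosen by name as clock genes, and all 10 were found among the 17524 genes of the series. The series sequenced RNA in 6 libraries of mouse heart: 3 have the genotype label WT, and the other 3 overexpress transcription factor EB (TFEB), a regulator of lysosome genes. The TFEB line is described as R26-LSL-TFEB [+/+]; Acta2-cre: a TFEB cassette at the Rosa26 locus, switched on by Cre under the promoter of the smooth muscle actin gene, which smooth muscle and myofibroblasts use. Both groups had the left anterior descending coronary artery ligated, so no uninjured heart serves as a baseline. Strain background, age, time after ligation and time of day of collection are not stated in the labels used. Libraries go by their title numbers: controls 35, 36 and 37, and TFEB 34, 41 and 43.

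The clock is a transcription loop that runs in almost every cell of the body, heart muscle included. CLOCK, or its close relative NPAS2, pairs with the product of Arntl and switches on the Per and Cry genes, whose proteins return to the nucleus and shut the pair off. The same pair switches on Nr1d1 and Nr1d2, which encode the REV-ERB repressors, and these repress Arntl, so that Arntl and the REV-ERB genes peak at opposite times of day. Dbp and Tef encode PAR bZIP factors, which carry the rhythm to output genes.

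The loop is written in short DNA motifs, and a few stretches of the members' promoters are shown as background. Whether these motifs relate to the order of the members across these libraries was not tested. The pair of activators binds the E-box CACGTG and the related form CACGTT, here called E'-box. PAR bZIP factors bind the D-box TTANGTAA, and REV-ERB and ROR receptors bind the ROR element, searched by its core TAGGTCA. N stands for any base. RefSeq windows of mouse build GRCm38.p6, from 250 bases before to 50 bases after a start site, were given for 9 of the 10 members, in 13 windows. Both strands were searched, and no pair of these motifs matched the same bases. Matched letters are in capitals, on the strand of the gene, 5′ to 3′.
Per3 D-boxes: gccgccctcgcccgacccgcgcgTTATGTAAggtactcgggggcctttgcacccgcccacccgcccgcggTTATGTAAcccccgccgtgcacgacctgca
Cry1 E'-box and E-box: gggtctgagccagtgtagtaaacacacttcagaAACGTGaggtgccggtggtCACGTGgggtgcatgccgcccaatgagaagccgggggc
Nr1d1 E'-box: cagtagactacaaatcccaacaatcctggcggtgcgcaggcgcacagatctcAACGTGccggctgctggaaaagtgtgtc
Tef E-box, first window: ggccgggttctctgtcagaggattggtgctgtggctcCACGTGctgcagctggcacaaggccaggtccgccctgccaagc
Tef E-box, second window: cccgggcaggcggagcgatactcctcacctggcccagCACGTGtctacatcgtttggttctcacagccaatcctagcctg
Arntl ROR element: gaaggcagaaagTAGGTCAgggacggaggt

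The Per3 stretch lies at chr4:151044794-151044893 on the minus strand, with both D-boxes upstream, starting 205 and 158 bases before the start site. Cry1 lies at chr10:85185077-85185166 on the minus strand, with the E'-box 79 and the E-box 60 bases upstream. Nr1d1 lies at chr11:98775378-98775457 on the minus strand, with the E'-box 28 bases upstream. The Tef stretches lie on the plus strand at chr15:81802509-81802588 and chr15:81811239-81811318, with the E-box 127 and 138 bases upstream of their start sites. The Arntl element lies at chr7:113207529-113207558 on the plus strand, 30 bases downstream of the start site of the second of its windows. Of all 32851 RefSeq windows of this length, 7.15% held an E-box, 4.68% an E'-box, 2.32% a D-box and 2.61% the ROR element core. Of the 9 members with a window, an E-box was found in 2, an E'-box in 2, a D-box in 1 and a ROR element in 1. Some members had several windows (Clock had 3), so these counts per gene are not on the scale of the shares per window. Clock, Npas2, Nr1d2 and Dbp held none of the 4 motifs in their windows. The hits are matches of letters in short windows and say nothing of binding in these hearts.

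Depth was even, from 12942480 to 14969287 estimated counts per library, and the members held from 99 counts (Dbp in control 36 and Per2 in TFEB 41) to 2470 counts (Tef in TFEB 43). Although the labels also call the material primary fibroblasts, heart muscle genes dominated every library: 8 cardiomyocyte markers summed to between 49570 and 89270 CPM, a count scaled by library total and TMM factor. Summed over 8 matrix fibroblast markers, the level ran from 2646 to 11890 CPM in the controls and from 2014 to 18820 CPM in the TFEB libraries. Control 35 stood apart by its atrial genes, with 17900 CPM over Nppa, Myl7, Myl4 and Sln against 329.6 to 8458 CPM in the other libraries. Nppa made up nearly all of the sum in TFEB 34, at 8454 CPM, where Myl7 stood at 0.127 CPM. Myl7 stood at 1507 CPM in control 35, at 134 CPM in control 37 and at 37.7 CPM or less elsewhere. Separate animals are not named in the labels, so p-values reflect only how far these libraries spread, which may be technical. In bulk RNA of this kind, fewer cells of a type and less RNA per cell cannot be told apart.

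No clock gene passed the test between the groups, while several differed widely between libraries of the same group. Dbp spanned 11.1-fold over the 6 libraries, Nr1d1 3.88-fold and Arntl 2.98-fold, and the order of the libraries was nearly the same for each, with Arntl running opposite to the others. Of the 10 members, 0 were called higher and 0 lower by the quasi-likelihood test of edgeR at an adjusted p under 0.05, where 0.0% of 13565 genes tested were called. DESeq2 called 0 members too, and 0.00572% of the 17469 genes it tested. The unadjusted p was under 0.05 in 2 members, Clock and Cry1, against 1.21% of all genes. Values of the 2 groups did not overlap in 1 member, Clock, against 4.75% of all genes. Median log2 fold change was 0.05 over the members and 0.003 over all genes tested, with 5 members on each side.

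**Figure D1:**
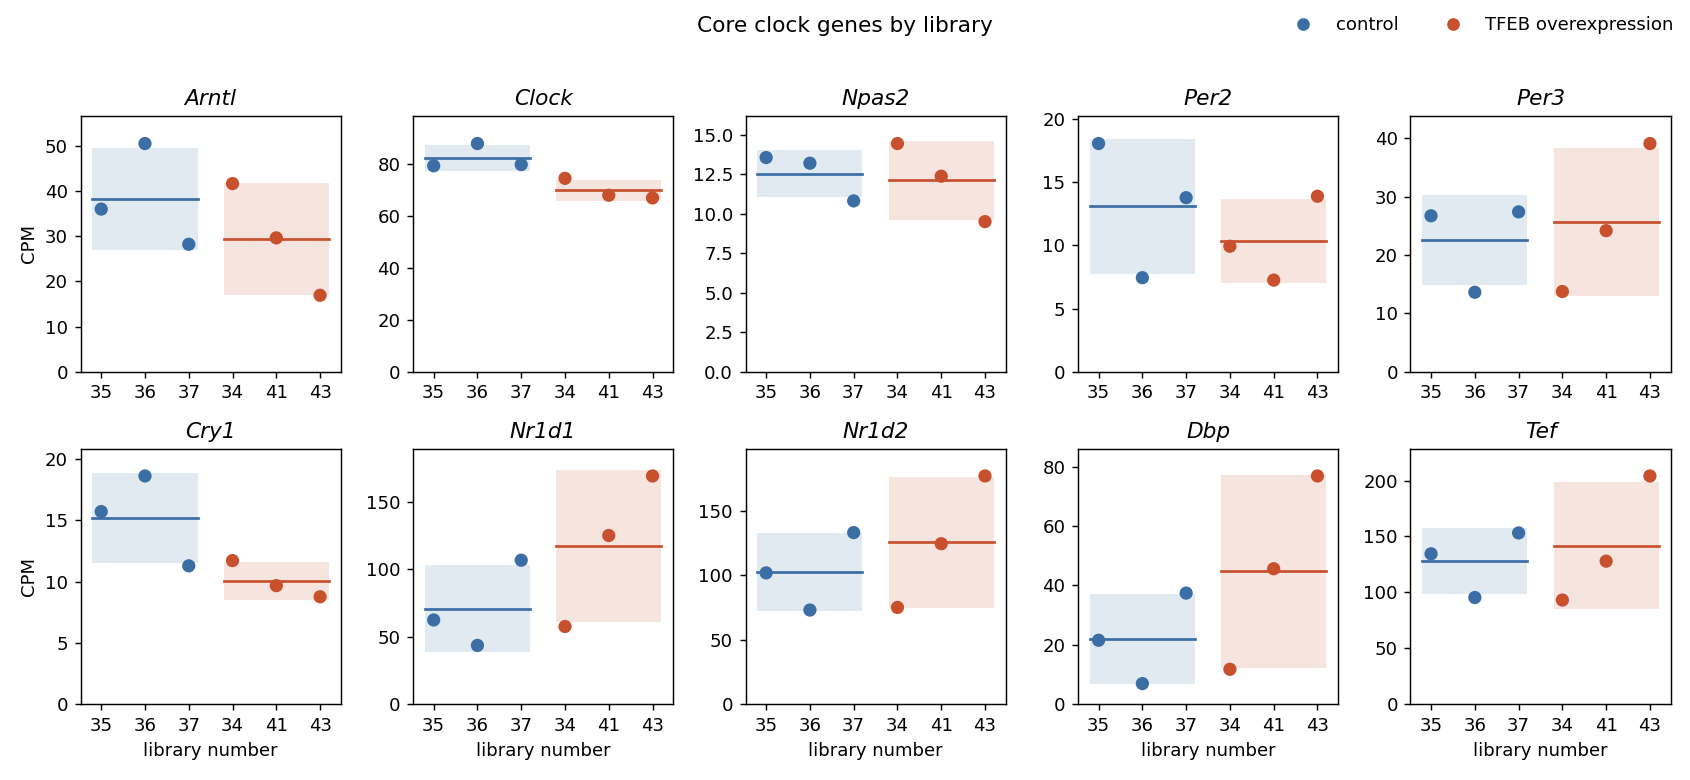
CPM of each of the 10 clock genes (vertical axes, from 0) in each library (horizontal axes, library number), controls in blue and TFEB overexpression in orange. Lines are group means and bands are 1 SD (n = 3 each). Dbp spans 6.95 to 76.8 CPM and TFEB 43 is highest or lowest for 9 of the 10 genes.

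On the scale of TPM, which corrects for transcript length and so allows genes to be compared, the REV-ERB and PAR bZIP genes were the most abundant members. Over the 6 libraries the level was 60.5 ± 28.0 TPM for Nr1d1, 53.8 ± 12.98 for Tef, 42.2 ± 12.1 for Nr1d2 and 38.8 ± 28.2 for Dbp (SD, n = 6). The activators followed, Arntl at 21.8 ± 8.62 TPM and Clock at 14.7 ± 2.02 TPM (SD, n = 6). Lowest were Cry1 at 7.59 ± 2.57, Per3 at 6.87 ± 2.34, Npas2 at 5.78 ± 1.21 and Per2 at 3.45 ± 1.19 TPM (SD, n = 6). Between neighbours in this order, the means lay farther apart than their SDs reach only for Clock and Cry1. Tef stood above Nr1d2, Clock above Cry1 and Npas2 above Per2 in 6 of 6 libraries, whereas Nr1d1 stood above Tef in only 3 of 6.

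Among the activators, Arntl carried the variation and Clock hardly any. Arntl (Entrez 11865, mm10 chromosome 7, 113178471 to 113314126), the partner of CLOCK, stood at 36.04, 50.5 and 28.2 CPM across controls 35, 36 and 37, then 41.7, 29.7 and 16.9 CPM across TFEB 34, 41 and 43. Control 36 and TFEB 34 were the highest of their groups, TFEB 43 was the lowest of all, and the groups overlapped. Group means were 38.3 ± 11.3 CPM for control and 29.4 ± 12.4 CPM for TFEB overexpression (SD, n = 3 each), with a log2 fold change of −0.38 (SE 0.36), a ratio of 0.770 (95% interval 0.425 to 1.396), and an edgeR adjusted p of 1.00. Clock (Entrez 12753, chromosome 5, 76209868 to 76305603), which encodes the partner of that product, stood at 79.2, 87.8 and 79.7 CPM across the controls, then 74.4, 67.9 and 66.8 CPM across TFEB 34, 41 and 43. Every TFEB value lay below every control value, by a small margin, with group means of 82.2 ± 4.82 and 69.7 ± 4.08 CPM (SD, n = 3 each). This put TFEB overexpression at 0.848 of control (95% interval 0.729 to 0.987; log2 fold change −0.24, SE 0.09), with an unadjusted p of 0.037 and an adjusted p of 1.00 by edgeR. Npas2 (Entrez 18143, chromosome 1, 39193702 to 39363240), which can stand in for CLOCK, stood at 13.6, 13.2 and 10.8 CPM across the controls, then 14.4, 12.4 and 9.50 CPM across the TFEB libraries. Its groups overlapped almost fully, at a log2 fold change of −0.05 (SE 0.19).

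In the repressor arm the members did not move as one. Cry1 (Entrez 12952, chromosome 10, 85131700 to 85185054), the cryptochrome that holds the activators back, stood at 15.7, 18.6 and 11.3 CPM across controls 35, 36 and 37, then 11.7, 9.67 and 8.76 CPM across TFEB 34, 41 and 43. TFEB libraries lay below 2 of the 3 controls, and TFEB 34 lay just above control 37. Group means were 15.2 ± 3.69 CPM for control and 10.04 ± 1.51 CPM for TFEB overexpression (SD, n = 3 each), a log2 fold change of −0.60 (SE 0.22), with an unadjusted p of 0.032 and an adjusted p of 1.00 by edgeR; the 95% interval of the ratio ran from 0.459 to 0.954. Per3 (Entrez 18628, chromosome 4, 150997018 to 151044707), a period protein that is dispensable for the loop, stood at 26.7, 13.6 and 27.4 CPM across the controls, then 13.7, 24.2 and 39.1 CPM across the TFEB libraries. Per3 was low in control 36 and TFEB 34 and highest in TFEB 43, whereas Cry1 was highest in control 36 and lowest in TFEB 43. Its log2 fold change was 0.18 (SE 0.43).

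Per2 took yet another order. Per2 (Entrez 18627, chromosome 1, 91415977 to 91459351), a period protein needed for a lasting rhythm, stood at 18.1, 7.44 and 13.8 CPM across controls 35, 36 and 37, then 9.93, 7.25 and 13.9 CPM across TFEB 34, 41 and 43. Control 35 was highest, control 36 and TFEB 41 were lowest, and the groups overlapped, at a log2 fold change of −0.34 (SE 0.37). Per2 was thereby the only member for which TFEB 43 was neither the highest nor the lowest library. Its relative Per1, which is also switched on by glucocorticoids, was likewise highest in control 35, at 69.1 CPM, then 34.4 and 59.0 CPM in controls 36 and 37 and 48.7, 39.5 and 44.8 CPM in TFEB 34, 41 and 43. Tsc22d3, a glucocorticoid target, stood at 196, 100 and 173 CPM across the controls, then 124, 79.3 and 97.7 CPM across TFEB 34, 41 and 43. For all 3 of these genes control 35 was the highest library. Other glucocorticoid-responsive genes were split: Klf9 and Ddit4 were also highest in control 35, but Fkbp5 and Zbtb16 in TFEB 34. Sgk1 and Errfi1 were highest in control 37. Per1 and Tsc22d3 are set beside Per2 here after their values were seen.

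Nr1d1 and Nr1d2 mirrored Arntl. Nr1d1 (Entrez 217166, chromosome 11, 98767932 to 98775377), which encodes REV-ERB alpha, stood at 62.3, 43.5 and 107 CPM across controls 35, 36 and 37, then 57.5, 125 and 169 CPM across TFEB 34, 41 and 43. Control 36 was lowest and TFEB 43 highest. Group means were 70.8 ± 32.4 CPM for control and 117 ± 56.1 CPM for TFEB overexpression (SD, n = 3 each), with a ratio of 1.65, a 95% interval from 0.758 to 3.604, a log2 fold change of 0.73 (SE 0.47) and an edgeR adjusted p of 1.00. Nr1d2 (Entrez 353187, chromosome 14, 18204056 to 18239106), which encodes REV-ERB beta, stood at 102, 73.0 and 133 CPM across the controls, then 75.0, 124 and 177 CPM across the TFEB libraries. The same libraries were lowest and highest as for Nr1d1, and the log2 fold change was 0.29 (SE 0.35). Within the controls Nr1d1 ranged 2.45-fold and within the TFEB libraries 2.94-fold, more than the ratio between the groups.

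Dbp had the widest range of the members. Dbp (Entrez 13170, chromosome 7, 45705100 to 45710203), a direct target of the activators and a classic readout of clock phase in tissue, stood at 21.5, 6.95 and 37.4 CPM across controls 35, 36 and 37, then 11.8, 45.6 and 76.8 CPM across TFEB 34, 41 and 43. Control 36 and TFEB 34 were low, control 37, TFEB 41 and TFEB 43 were high, and each group held both kinds. The range was 5.38-fold within the controls and 6.53-fold within the TFEB libraries, while the ratio of the groups was 2.04 with a 95% interval from 0.548 to 7.56 (log2 fold change 1.03, SE 0.79, edgeR adjusted p = 1.00). Such an interval excludes neither a strong increase nor a decrease. Tef (Entrez 21685, chromosome 15, 81802673 to 81826863), a relative of Dbp, stood at 134, 95.4 and 153 CPM across the controls, then 93.2, 128 and 204 CPM across the TFEB libraries. Its libraries followed a similar order over a narrower range of 2.19-fold, at a log2 fold change of 0.15 (SE 0.32).

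Set against each other within a library, the opposed arms of the loop gave ratios that ranged widely within each genotype. The ratio of Dbp to Arntl on the TPM scale was 1.15, 0.275 and 2.53 in controls 35, 36 and 37 and 0.531, 2.89 and 8.65 in TFEB 34, 41 and 43. Arntl exceeded Dbp in control 36 and TFEB 34 and was exceeded by it in the other 4 libraries. For Nr1d1 over Arntl the ratios were 1.80, 0.904 and 3.96 in the controls and 1.41, 4.37 and 10.4 in the TFEB libraries, in the same order of libraries. These ratios describe 6 libraries and carry no test.

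**Figure D2:**
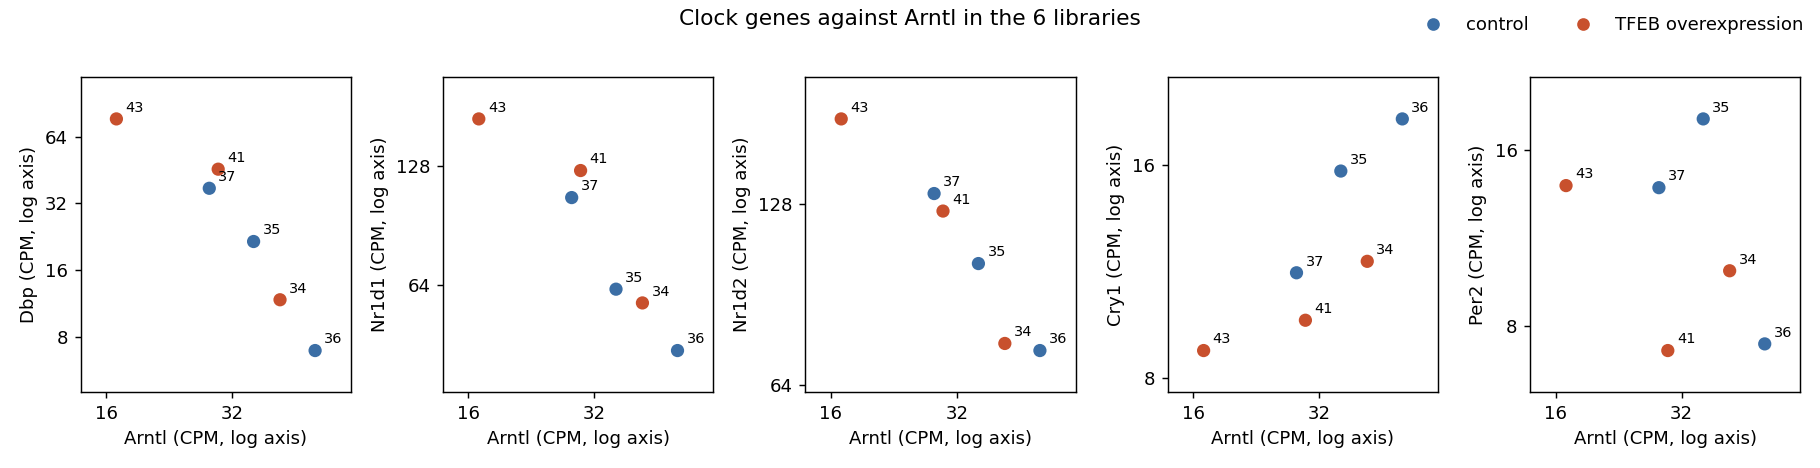
CPM of Dbp, Nr1d1, Nr1d2, Cry1 and Per2 (vertical axes, log) against CPM of Arntl (horizontal axes, log), 1 point per library, labelled by library number, controls in blue and TFEB overexpression in orange. From control 36 (Arntl 50.5 CPM, Dbp 6.95 CPM) to TFEB 43 (Arntl 16.9 CPM, Dbp 76.8 CPM) Dbp, Nr1d1 and Nr1d2 run opposite to Arntl, Cry1 runs with it and Per2 does neither.

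TFEB 43 stood at one extreme and control 36 or TFEB 34 at the other for 9 of the 10 members. The libraries of this split were chosen from the members' own values, so the count describes the members and is no test. This split was common in the series: the same held for 36.9% of all genes tested, and TFEB 43 was highest or lowest for 50.4% of them. The members were also variable genes. CPM ranged at least 2-fold for 8 of 10 members, against 25.3% of all genes, and the SD of log2 CPM over the libraries placed Dbp at the 98.2 percentile of genes tested, Nr1d1 at the 93.3 percentile and Arntl at the 87.0 percentile. Clock, at the 33.1 percentile, and Npas2, at the 52.9 percentile, were the exceptions. Single libraries weighed on the group values accordingly. Without TFEB 43 the log2 fold change was −0.101 for Arntl, 0.384 for Dbp, 0.364 for Nr1d1, −0.042 for Nr1d2, −0.254 for Per3, −0.208 for Tef and 0.098 for Npas2, so 4 members changed direction. Without control 36 it was −0.125 for Arntl, 0.600 for Dbp, 0.471 for Nr1d1, 0.095 for Nr1d2, −0.079 for Per3 and −0.022 for Tef. Per2 stood at −0.035 without control 35. In the other direction, Dbp stood at 1.646 without control 37 and Arntl at −0.714 without TFEB 34.

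Sums of cell type markers moved with this order at its ends. Matrix fibroblast markers summed to 8002, 11890 and 2646 CPM in controls 35, 36 and 37 and to 18820, 10260 and 2014 CPM in TFEB 34, 41 and 43, and all 8 markers were detected. Cardiomyocyte markers summed to 65280, 58900 and 81450 CPM in the controls and to 49570, 70200 and 89270 CPM in the TFEB libraries, again with 8 of 8 detected. Control 36 and TFEB 34, with the most Arntl and the least Dbp, thus had the highest matrix sums and the lowest cardiomyocyte sums, and TFEB 43 the reverse. In between, the orders differed: TFEB 41 had a higher matrix sum than control 35 and also more Dbp. Single markers did not all run with their sums: Actc1 was lowest in control 35 and highest in TFEB 41. Dcn and Pdgfra were highest in control 35. Myh6 weighed most on the cardiomyocyte sums, at 23129 CPM in TFEB 34 and 49163 CPM in TFEB 43. The summed macrophage markers (6 of 6 detected) ran from 463 to 852 CPM in the controls and from 397 to 1208 CPM in the TFEB libraries, highest in TFEB 34. With the cardiomyocyte level as a covariate the log2 fold change was −0.42 for Arntl, 0.80 for Dbp and 0.66 for Nr1d1, and with the matrix level it was −0.51, 1.11 and 0.81. By edgeR their unadjusted p was 0.027, 0.0531 and 0.00263 with the first covariate and 0.002, 0.033 and 0.00693 with the second. Their adjusted p was 0.918 with the first and 0.999 with the second. Genes with an unadjusted p under 0.05 numbered 521 and 493 of 13565, against 164 without a covariate. The part of tissue composition in the spread of the clock genes was not tested.

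**Figure D3:**
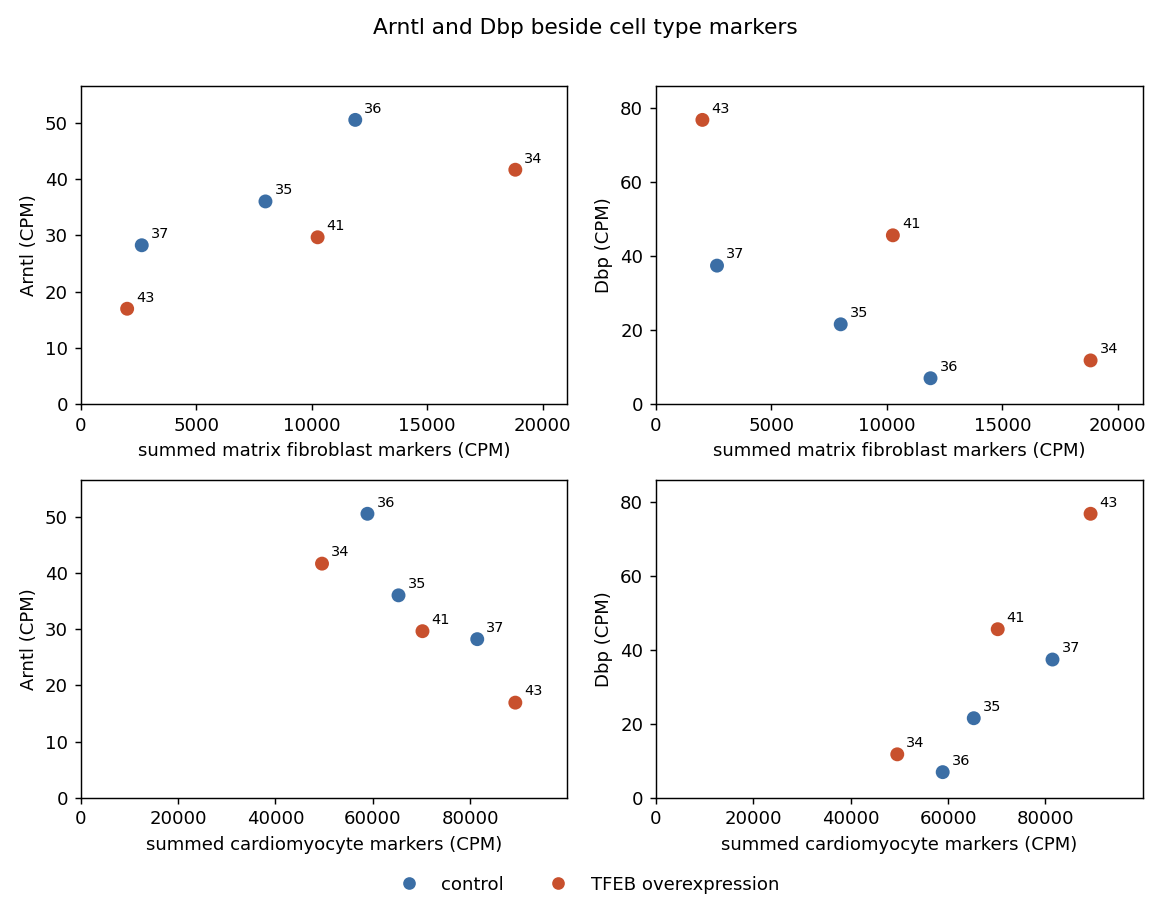
CPM of Arntl (left) and Dbp (right) against the summed CPM of 8 matrix fibroblast markers (top) and 8 cardiomyocyte markers (bottom), 1 point per library with its number, controls in blue and TFEB overexpression in orange. TFEB 43, with the least Arntl (16.9 CPM) and the most Dbp (76.8 CPM), has the lowest matrix sum (2014 CPM) and the highest cardiomyocyte sum (89270 CPM).

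The rest of the clock machinery gave no call either. Of 12 other clock genes, 0 passed in either direction, 5 had a higher and 7 a lower value in TFEB overexpression, and the median log2 fold change was −0.04. Bhlhe41, a repressor of the activator pair, stood at 18.7, 23.8 and 24.0 CPM across the controls, then 29.0, 27.7 and 31.0 CPM across TFEB 34, 41 and 43. All 3 TFEB values lay above all controls, with a log2 fold change of 0.40 (SE 0.13), an unadjusted p of 0.0188 and an adjusted p of 1.00 by edgeR. Groups did not overlap, in either direction, for 4.75% of all genes tested. Bhlhe40 stood at 0.27 (SE 0.17) and Per1 at −0.29 (SE 0.25) on the log2 scale.

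Some genes of that list followed the libraries in the way members did, and the 3 described here were chosen after their values were seen. TFEB 43 stood at one extreme and control 36 or TFEB 34 at the other for Hlf, Cry2, Nfil3, Ciart and Rora. The same held for 36.9% of all genes tested, and the split had been chosen from the members' values. It did not hold for others of the list, such as Per1, Bhlhe40, Bhlhe41, Rorb, Arntl2 and Timeless. Hlf, the third PAR bZIP gene, stood at 30.4, 13.4 and 39.4 CPM across controls 35, 36 and 37, then 12.5, 19.4 and 42.4 CPM across TFEB 34, 41 and 43, low in control 36 and TFEB 34 as Dbp was. Cry2, the second cryptochrome gene, stood at 42.5, 28.9 and 44.96 CPM and at 27.4, 33.1 and 51.9 CPM, low in control 36, where Cry1 was highest, and highest in TFEB 43, where Cry1 was lowest. Nfil3, a repressor that competes with PAR bZIP factors for the D-box and is itself repressed by REV-ERB, stood at 18.3, 26.2 and 14.002 CPM and at 19.1, 15.9 and 12.5 CPM, highest in control 36 and lowest in TFEB 43 as Arntl was. None of the 3 differed between the groups by the edgeR test (adjusted p = 1.00 for each).

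**Figure D4:**
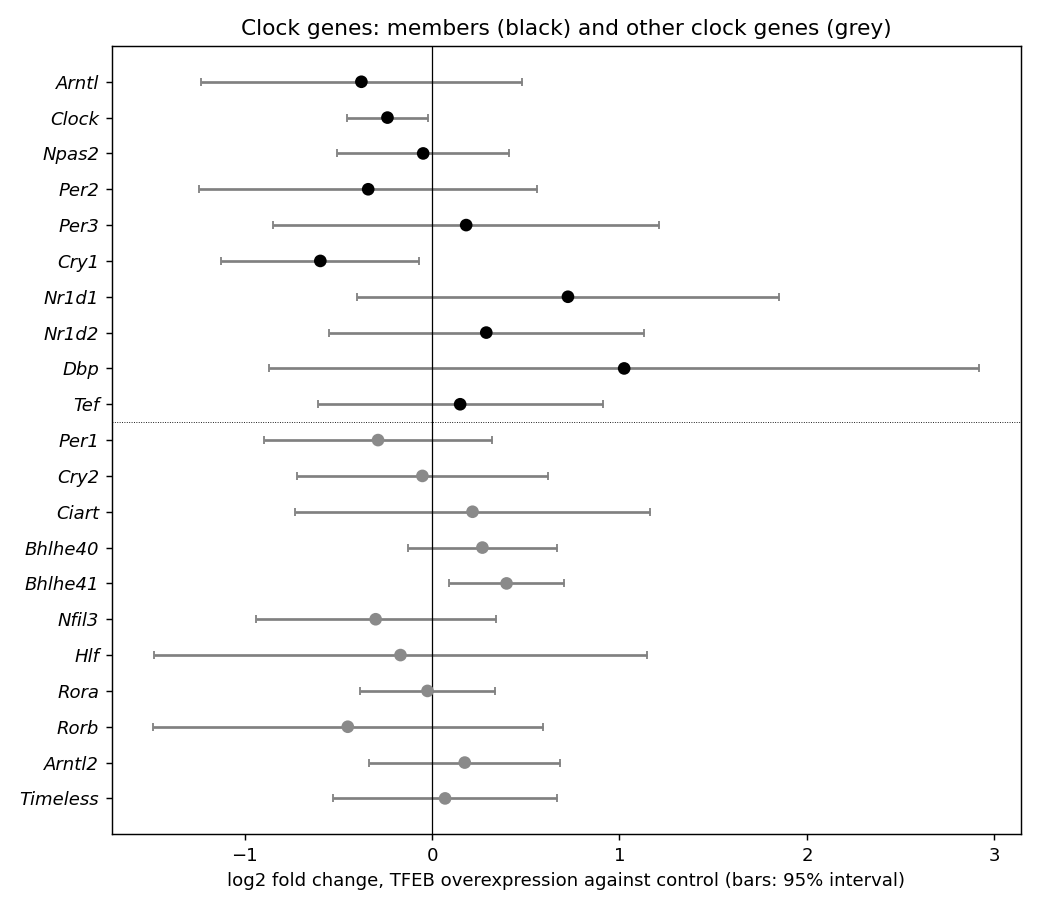
Log2 fold change of TFEB overexpression against control (horizontal axis) for the 10 members (black) and 11 other clock genes (grey), with 95% intervals from the edgeR fit (3 libraries per group). Intervals of Clock, Cry1 and Bhlhe41 lie to one side of 0 before adjustment, no gene passes after it, and Dbp has the widest interval.

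Genes that modify clock proteins gave no call. Among 14 kinases, ubiquitin ligases and other modifiers, 0 passed, 4 had a higher and 10 a lower value, and the median log2 fold change was −0.07, or −0.023 without TFEB 41 and −0.033 without TFEB 34. Those with the smallest p were the deacetylase gene Sirt1 (0.15, SE 0.09), the ubiquitin ligase gene Siah2 (−0.37, SE 0.23), the kinase gene Csnk2a1 (−0.14, SE 0.15) and the ubiquitin ligase gene Fbxw7 (−0.23, SE 0.26). The casein kinase genes Csnk1d and Csnk1e, which mark PER proteins for destruction, had SDs of log2 CPM at the 4.53 and 0.546 percentiles of genes tested. Other genes of the list varied nearly as much as Cry1, which was at the 78.8 percentile, or more. The ubiquitin protease gene Usp2 stood at the 80.03 percentile and Fbxw7 at the 76.2 percentile. The ubiquitin ligase gene Fbxl21, which averaged under 1 CPM in both groups, stood at the 88.7 percentile.

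Heart genes known to follow the clock were listed as outputs, and 0 of 16 passed, with 8 values on each side and a median of −0.06. Among those with the smallest p were the cell cycle kinase gene Wee1 (−0.43, SE 0.21), the metabolic regulator gene Klf15 (−0.43, SE 0.25) and Pik3r1 (−0.25, SE 0.16). Tcap, a sarcomere gene under direct control of the clock and named after its values were seen, stood at 843, 403 and 1155 CPM across the controls, then 397, 957 and 1250 CPM across the TFEB libraries. It was low in control 36 and TFEB 34, as Dbp was, and it is also a heart muscle gene.

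Glucocorticoid-responsive genes were followed because adrenal hormone sets tissue clocks. Of 8, 0 passed by edgeR, 2 had a higher and 6 a lower value, and the median log2 fold change was −0.35, against 0.003 over all genes. Leaving out TFEB 34 gave a median of −0.647, and leaving out control 35 gave −0.247. This list, like the others, was chosen with earlier results of these data known, and it holds Ddit4, the only gene called by DESeq2. Its median is therefore a description and not a test. Ddit4, an inhibitor of mTORC1, stood at 74.7, 65.4 and 73.1 CPM across the controls, then 38.9, 26.0 and 20.3 CPM across TFEB 34, 41 and 43 (log2 fold change −1.32, SE 0.23). Tsc22d3 stood at −0.64 (SE 0.28). Over all genes tested, 4.75% had groups that did not overlap, in either direction. The kinase gene Sgk1 (−0.43, SE 0.13) and the EGF receptor inhibitor gene Errfi1 (−0.41, SE 0.14), like Ddit4, had their 3 TFEB values below every control. Fkbp5, another hormone target, did not share this order, at 44.3, 31.0 and 17.1 CPM in the controls and 79.1, 18.6 and 10.2 CPM in the TFEB libraries. Markers of fat cells separated the groups in the same direction as Ddit4, Sgk1, Errfi1 and, among the members, Clock: Adipoq, Plin1, Cidec and Cfd summed to 40.8, 213 and 14.39 CPM in controls 35, 36 and 37 and to 0.1273, 9.153 and 6.528 CPM in TFEB 34, 41 and 43. All 4 had their TFEB values below every control, beside the 4.75% of all genes without overlap, and Adipoq and Cidec were at 0 in TFEB 34. Smooth muscle markers (5 of 5 detected) summed to between 284.1 and 335.2 CPM in the controls and between 312.3 and 534.7 CPM in the TFEB libraries. Among them Acta2, whose promoter drives the Cre, stood at 106, 100.3 and 137 CPM across the controls, then 214, 291 and 174 CPM across the TFEB libraries, with every TFEB value above every control. Acta2 was the only 1 of the 5 without overlap, although all 5 had a positive log2 fold change. That of Myh11 was 0.004, and Tagln, Cnn1 and Myl9 were lowest of all libraries in TFEB 43. The part of these cell types in the values of Clock, Bhlhe41 and the glucocorticoid-responsive genes was not tested.

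The tested genes whose course over the 6 libraries was most like that of Arntl, by Pearson correlation of log2 CPM among 10913 genes averaging 5 CPM or more, were Ogt, Pura, Plscr4, Cd300ld3, Prkaa1 and Angptl7, with r from 0.987 to 0.994. Ogt, the O-GlcNAc transferase gene, ran only from 193 to 210 CPM, so a close likeness did not mean a wide range, while Angptl7 ran from 1.74 to 36.5 CPM. Most like Dbp were Tbce, Fra10ac1, Rp9, Ctdnep1, Klf12 and Timm13, with r from 0.982 to 0.996. In the same ranking for Dbp, Nr1d1 took place 10 and Nr1d2 place 19, Per3 place 149 and Tef place 219 of 10913. Per2 took place 4269 (r 0.363). Counted from the bottom, Arntl took place 45, Cry1 place 415, Npas2 place 735 and Clock place 880. In the ranking for Arntl, Npas2 took place 299, Cry1 place 831, Clock place 1521 (r 0.757) and Per2 place 6821 (r −0.414). Counted from the bottom of it, Nr1d2 took place 42, Dbp place 73, Nr1d1 place 74, Tef place 87 and Per3 place 246. These correlations are descriptions over 6 libraries that share the order of summed cell type markers given above.

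At the level of transcript models, the authors' quantification spread some members over many. Nr1d1, Nr1d2 and Npas2 drew 99.7%, 98.6% and 96.2% of their counts from 1 model. Clock was divided over 12 models, the leading one with 32.5%, and Arntl over 14, with 47.5%. A model's share is uncertain where models overlap this closely, so gene sums were used throughout.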

How the data were processed

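Tools named in the submitters' processing notes, with no role given, are RSEM 1.3.1, HISAT2 2.1.0, DESeq2 1.4.5 and Bowtie2 2.3.4.3, and the build named is mm10. The authors' table lists 62498 transcripts. The estimated counts in it were deposited without scaling for depth, per the file headers and the column sums. The TPM values were deposited by the authors scaled for transcript length and to a fixed sum per library. Strand and annotation release are not stated in the labels.

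Counts were summed per Entrez gene (17524 genes) and rounded. Symbols and coordinates came from the RefSeq table of GRCm38.p6; 117 genes had no symbol (0.51% of counts) and stayed in the test. The test was the edgeR 4.0.16 quasi-likelihood test (filterByExpr, TMM, two-sided) in R 4.3.3 with Benjamini-Hochberg adjustment over 13565 genes, called under 0.05. List levels used as covariates and likeness used log2 CPM with a prior count of 2. The script was tested on simulated counts. Alternatives were RLE scaling, DESeq2 1.42.0, limma 3.58.1 (voom, and trend on log2(TPM + 1) and log2(TPM + 0.1)), 2 other filters, each library left out, and 2 marker covariates.

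Besides the members, up to 4 genes with the smallest p per clock list and 6 genes per likeness ranking were named, and 2 of these are not reported here. Genes named outside this rule should be read as chosen after their values were seen, also where the text does not say so. Members and lists were chosen with earlier results of these data known. With 3 libraries a group, precision comes from the spread between libraries, which edgeR moderates by that of the other genes. SEs were taken from the log2 fold change and the F value of the test, and intervals from the t distribution. Figures used matplotlib 3.10.9.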

Additional observations from a re-analysis of the deposited data

How the results depend on the processing

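No member was called in any of the 15 alternatives, where the smallest adjusted p of a member was 0.792. Of 150 member values under them, 143 kept their direction, and the 7 that did not all came from leaving out 1 library; the cause was not tested. Without 1 library the log2 fold change ran from −0.194 to 0.098 for Npas2, from −0.254 to 0.486 for Per3, from −0.208 to 0.379 for Tef and from −0.042 to 0.554 for Nr1d2. It also ran from 0.384 to 1.646 for Dbp, from 0.364 to 1.145 for Nr1d1 and from −0.714 to −0.101 for Arntl, in each case nearest 0 without TFEB 43. Per2 ran from −0.623 to −0.035, Cry1 from −0.769 to −0.425 and Clock from −0.287 to −0.188. The median of the other clock genes ran from −0.168 to 0.085 and that of the heart output genes from −0.359 to 0.025, so neither has a settled sign. That of the clock protein modifiers ran from −0.09 to −0.023 and that of the glucocorticoid-responsive genes from −0.647 to −0.247. DESeq2 called 1 gene in all, Ddit4, which is 1 of the glucocorticoid-responsive list, where edgeR called 0 and had 164 genes at an unadjusted p under 0.05. No paired analysis was possible because the groups share no replicate number. Counts near 100, as for Dbp and Per2 in their lowest libraries, limit those values most.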
